A study of Mus musculus with 16 samples.

Results

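Of the Src family kinases, 6 genes were chosen by name, and they were represented by 5 probe sets of 4 genes among 12422 probe sets tested. The measured genes were Blk (2 probe sets), Fyn, Fgr and Src (1 each), and every probe set whose only gene symbol in the platform annotation was Lck, Fyn, Blk, Lyn, Fgr or Src was taken. Of these 6 genes, Lck and Lyn had 0 probe sets under that rule and were not analysed here. A probe set reads a stretch of a gene's transcript, and its intensity rises with the amount of RNA.

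The study asked how thymocytes respond to peptide during negative selection in mice of 2 strains. The cells were double-positive thymocytes, which carry both CD4 and CD8, taken from organ cultures of fetal thymus. The 6 groups were BDC2.5/NOD thymocytes after 16 h of peptide (n = 3), BDC2.5/B6g7 thymocytes after 16 h of peptide (n = 3), BDC2.5/NOD and BDC2.5/B6g7 thymocytes with no peptide added (n = 3 each), wild-type NOD thymocytes (n = 2) and wild-type B6g7 thymocytes (n = 2), which made 16 arrays. BDC2.5 is a transgenic T cell receptor (TCR) cloned from a CD4 T cell that causes diabetes. The NOD strain is prone to autoimmune diabetes, and B6g7 combines a C57BL/6 background with the NOD haplotype of the MHC, so that the strains share that haplotype. The labels give neither the peptide nor its dose, nor the age of the fetuses, nor whether wild-type cultures received peptide. Nothing in them says that replicates are separate cultures or animals, and p-values then measure only the spread between these samples, which may be technical.

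Src family kinases are tyrosine kinases anchored at the inner face of the plasma membrane. In thymocytes Lck, bound to the CD4 and CD8 coreceptors, and Fyn phosphorylate the CD3 and zeta chains of the TCR, which lets the kinase Zap70 bind and pass the signal on. Csk restrains the family by phosphorylating its C-terminal tyrosine, and the phosphatase CD45 (Ptprc) removes that phosphate. Blk is best known as a kinase of B lymphocytes and their precursors, and it is also found in early thymocytes and some gamma-delta T cells. Fgr is a kinase of myeloid cells, and Src is the broadly expressed founder of the family.

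Median intensity per array lay between 54.7 and 59.1 on the linear scale. The last-numbered array of each group, 4 of BDC2.5 and 2 of wild-type cells and called third-number arrays here, stood apart from the other 10. Their difference between the 3′ and 5′ probe sets of beta-actin, a measure of how far the RNA or its copies extend, was 1.37 to 1.96 on the log2 scale, against 2.24 to 3.27 in the other 10. Comparisons of peptide and of strain are balanced for these arrays, and those of the transgene are not, since wild-type groups hold fewer arrays. The labelled cell type had its defining genes on the arrays: Cd4 averaged an intensity of 246, Cd8a 2722 and Cd8b1 1510.

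Blk was the member that separated the groups. By its brighter probe set (95893_at) it was lower in NOD than in B6g7 thymocytes, by 2.60-fold with peptide and by 1.75-fold on average over the 3 states (with peptide, without peptide and wild type). Its second probe set did not show this. With peptide, the intensities of Blk by its brighter probe set were 40.5, 47.1 and 37.2 in BDC2.5/NOD arrays, against 98.2, 113 and 112 in BDC2.5/B6g7 arrays. All 3 NOD arrays lay below all 3 B6g7 arrays, and the lowest B6g7 value was above the highest NOD value by more than the whole spread of either group. The log2 difference, NOD minus B6g7, was -1.38 ± 0.21 (SE of limma's fit across all probe sets, 95% interval -1.84 to -0.92), with a Benjamini-Hochberg adjusted p of 0.0117. NOD was lower in 3 of 3 same-numbered pairs of arrays. limma called 61 of the 12422 probe sets in this comparison, 15 higher and 46 lower in NOD, which is 0.491% (a call is an adjusted p under 0.05), and 1 of the 5 kinase probe sets was among them. The call was lost without the BDC2.5/NOD peptide array numbered 1 (adjusted p = 0.0623) or that numbered 3 (adjusted p = 0.0639), while the size stayed at -1.36 and -1.30.

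Without peptide, Blk by its brighter probe set read 55.0, 40.9 and 35.5 in BDC2.5/NOD arrays, against 77.2, 104 and 53.5 in BDC2.5/B6g7 arrays. The groups overlapped by 1 array on each side, the highest NOD array lying just above the lowest B6g7 array. The log2 difference was -0.81 ± 0.21, NOD being lower in 3 of 3 same-numbered pairs, and limma's adjusted p was 0.31 (0.00209 before adjustment). Called probe sets were 33 of 12422 (0.266%), with 0 of the 5 kinase probe sets. With a term for the third-number arrays in the fit the difference passed (adjusted p = 0.0424). In wild-type cells Blk read 33.7 and 29.2 in NOD arrays, against 39.9 and 34.3 in B6g7 arrays, a difference of -0.24 ± 0.26 by limma (95% interval -0.80 to 0.32, adjusted p = 1). The background there was 11 called probe sets (0.0886%), again with 0 kinase probe sets.

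Averaged over the 3 states, the strain difference of Blk by its brighter probe set was -0.81 ± 0.13 (95% interval -1.09 to -0.52, limma's adjusted p = 0.00534). In this average 161 probe sets were called (1.3%), 73 of them higher and 88 lower in NOD, and 1 of the 5 kinase probe sets was called. Under the 24 other settings in which it was tested, this difference lay between -0.89 and -0.63 and its adjusted p between 0.000288 and 0.0284. The strain differences share no arrays between states, but the average is built from all 3.

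Ordered by group mean, Blk by its brighter probe set was highest in BDC2.5/B6g7 with peptide, at an intensity of 108 ± 8.39 (SD, n = 3), followed by BDC2.5/B6g7 without peptide at 78.2 ± 25.2 (n = 3). Next came BDC2.5/NOD without peptide at 43.8 ± 10.1 and BDC2.5/NOD with peptide at 41.6 ± 5.05 (n = 3 each). Wild-type B6g7 at 37.1 ± 4.01 and wild-type NOD at 31.5 ± 3.17 (n = 2 each) were lowest. Neighbours in this order overlapped in their arrays, except the 2 wild-type groups, whose difference did not pass the test. Of the variance of this probe set over the 16 arrays, 88.6% lay between groups.

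**Figure D1:**
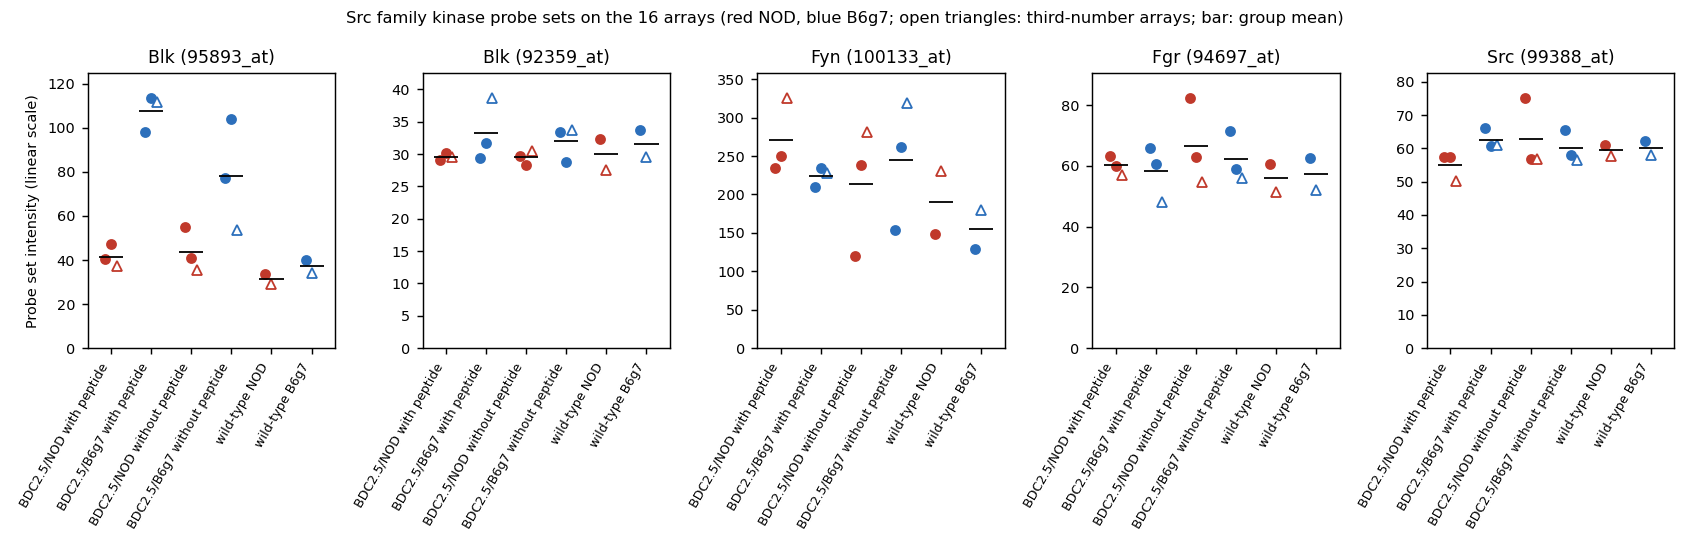
Intensity on a linear scale of the 5 kinase probe sets (panels) in each array (points) of the 6 groups, NOD in red and B6g7 in blue, with the group mean as a bar and the third-number arrays as open triangles. For Blk by its brighter probe set the 3 BDC2.5/NOD peptide arrays sit between 37.2 and 47.1 and the 3 BDC2.5/B6g7 peptide arrays between 98.2 and 113, while none of the other 4 probe sets passed a comparison.

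None of the transgene or peptide differences of Blk passed in limma's fit of all arrays. In B6g7, the BDC2.5 arrays without peptide all lay above the wild-type arrays, by 1.03 ± 0.24 on the log2 scale (limma's adjusted p = 0.591), with 10 probe sets called (0.0805%) and 0 of them a kinase. In NOD, the BDC2.5 arrays also all lay above the wild-type arrays, by 0.46 ± 0.24 (adjusted p = 0.999), with 7 called (0.0564%) and 0 of them a kinase. Groups of 2 or 3 arrays can lie apart by chance, and the share of all probe sets that did so was not counted. This limit holds for every statement here that the arrays of groups lay apart or did not overlap. The average over both strains was 0.74 ± 0.17 (adjusted p = 0.33), with 13 called (0.105%) and 0 of them a kinase. This average passed with the replicate number as a block (0.85, adjusted p = 0.0444) and without the BDC2.5/B6g7 array numbered 3 without peptide (0.87, adjusted p = 0.0416). It passed under none of the other alternatives, such as the term for the third-number arrays. The block sets wild-type arrays numbered 2 beside BDC2.5 arrays numbered 2, although those wild-type arrays were third-number arrays. The difference between the strains in the transgene difference, tested after the values of Blk had been seen, was -0.57 ± 0.34 (adjusted p = 1), and 0 of 12422 probe sets (0%) were called for it, with 104 at an unadjusted p under 0.05.

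With peptide against without it, Blk by its brighter probe set differed by 0.51 ± 0.21 in B6g7 cells (limma's adjusted p = 1), the 3 same-numbered pairs giving 0.35, 0.13 and 1.06. That value was 0.24 without the third-number arrays. In NOD cells the peptide difference was -0.06 ± 0.21 (adjusted p = 1), with pairs at -0.44, 0.20 and 0.07. The difference of the 2 responses, NOD minus B6g7, was -0.57 ± 0.30 (95% interval -1.22 to 0.08, limma's adjusted p = 1). Called probe sets were 1 in B6g7 (0.00805%), 0 in NOD (0%, with 207 at an unadjusted p under 0.05), 3 in the mean of both strains (0.0242%) and 0 in the difference of the responses (0%, with 147 at an unadjusted p under 0.05), and 0 kinase probe sets were called in any of them. The peptide and strain comparisons share their BDC2.5 groups, and the transgene and peptide comparisons share the BDC2.5 groups without peptide.

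The dimmer Blk probe set (92359_at) did not follow the brighter one. It read 29.1, 30.1 and 29.6 in BDC2.5/NOD peptide arrays, against 29.4, 31.7 and 38.6 in BDC2.5/B6g7 peptide arrays, a log2 difference of -0.16 ± 0.11 (limma's adjusted p = 1). Averaged over the 3 states it gave -0.12 ± 0.07 (95% interval -0.26 to 0.03, adjusted p = 1), an interval that does not overlap that of the brighter probe set. Over all 16 arrays the dimmer probe set stayed between 27.6 and 38.6, whereas the brighter one ranged from 29.2 to 113. Across the arrays the log2 values of these probe sets correlated at 0.40 over all 16, and at -0.09 over the 10 arrays other than the third-number arrays, which share the authors' scaling. The table holds no detection values, so whether the dimmer probe set read Blk RNA above background is unknown. The same limit holds for the brighter one where it was low. It read 37.2 to 47.1 in BDC2.5/NOD peptide arrays and 29.2 to 39.9 in wild-type arrays, under the lowest array median of 54.7. If those values lie near background, its fold differences need not equal ratios of RNA, and a difference in wild type could be missed. Which stretch of the transcript either probe set reads is also unknown. A statement about Blk here is therefore a statement about its brighter probe set.

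Markers of cells other than double-positive thymocytes were measured beside this result, since Blk marks B lineage cells. In sorted cells measured in bulk, fewer cells of a type and less RNA per cell cannot be told apart. Of 16 measured B cell markers, 8 were higher and 8 lower in NOD in the average of the 3 states, with 0 called. Cd79a, a chain of the B cell receptor, gave 0.03, and Pax5, the factor that fixes B cell identity, gave -0.09, each at limma's adjusted p = 1. The 14 B cell markers other than the bright Cd24a and Ighm were also summed. Their summed intensity was 715 to 769 in BDC2.5/NOD peptide arrays and 688 to 795 in BDC2.5/B6g7 peptide arrays, which overlapped. Several of the 14 read near the lowest intensity of 7.77, such as Cr2 at 9.43 and Ebf1 at 11.9 on average in BDC2.5/B6g7 peptide arrays. With no detection values, the sum can miss a small difference in B cells. Of 10 gamma-delta T cell genes other than Blk, only Sox13 and Il17a were measured. Their summed intensity was 250 to 272 in BDC2.5/NOD peptide arrays and 240 to 280 in BDC2.5/B6g7 peptide arrays.

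Myeloid and dendritic cell markers, when summed, were lower in NOD in the peptide arrays, as Blk was. Their summed intensity over 23 genes was 961 to 1225 in BDC2.5/NOD peptide arrays, against 1232 to 1750 in BDC2.5/B6g7 peptide arrays, and 17 of 23 were lower in NOD, with 0 called. The lysosomal protease Ctss, the brightest of them, read 56.3 to 256 in BDC2.5/NOD peptide arrays, against 159 to 697 in BDC2.5/B6g7 peptide arrays. Without it the sum over 22 genes was 901 to 970 in BDC2.5/NOD peptide arrays, against 1054 to 1138 in BDC2.5/B6g7 peptide arrays, still with no overlap. Among them Tyrobp, an adaptor of myeloid and NK receptors, gave -0.69 and the complement gene C1qa -0.32. Another 6 of the 23 were higher in NOD with peptide. Of these, Itgam averaged 28.1 in BDC2.5/NOD peptide arrays against 26.3 in BDC2.5/B6g7 peptide arrays, Fcgr3 72.3 against 68.3 and Spi1 64.4 against 61.2. The part of the myeloid and dendritic cell markers in the result of Blk was not tested. Without peptide these sums overlapped, at 945 to 1319 in BDC2.5/NOD arrays and 1087 to 1230 in BDC2.5/B6g7 arrays. Of 10 double-positive thymocyte genes, 8 were higher and 2 lower in NOD with peptide (median 0.36, against 0.00614 over all probe sets). Of them 0 were called higher and 1, Cd8b1, was called lower, where 0.491% of all probe sets were called. Their sum was 7452 to 8583 in BDC2.5/NOD peptide arrays and 6247 to 10230 in BDC2.5/B6g7 peptide arrays. In the transgene comparison in B6g7 the same sum was 10580 to 11770 in BDC2.5/B6g7 arrays without peptide. It was 14460 to 17510 in wild-type B6g7 arrays, with no overlap. In NOD this sum overlapped, at 7993 to 13110 in BDC2.5/NOD arrays without peptide and 11130 to 15820 in wild-type arrays, while Blk did not. The part of these genes was not tested either. No value in the table was 0, so none of these markers was listed at 0.

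The other marker lists had 0 members called in the strain average. In the peptide arrays the sum of 8 NK and innate lymphocyte markers was 503 to 634 in BDC2.5/NOD and 475 to 797 in BDC2.5/B6g7. That of 9 thymic epithelial markers was 433 to 454 in BDC2.5/NOD and 434 to 491 in BDC2.5/B6g7, and that of 11 mesenchymal and endothelial markers was 763 to 855 in BDC2.5/NOD and 750 to 896 in BDC2.5/B6g7. The sum of 7 double-negative thymocyte genes was 1203 to 2575 in BDC2.5/NOD and 1288 to 2389 in BDC2.5/B6g7. That of 5 erythroid genes was 229 to 246 in BDC2.5/NOD and 216 to 272 in BDC2.5/B6g7, and that of 3 platelet genes was 256 to 321 in BDC2.5/NOD and 256 to 323 in BDC2.5/B6g7. Each of these pairs of ranges overlapped.

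Genes that lie beside Blk in the mouse RefSeq order gave small strain differences. The nearest 3 measured genes on each side were Ctsb, Fdft1 and Gata4 and Mtmr9, Sox7 and Hmbox1. Their averages over the 3 states, NOD minus B6g7, ran from -0.13 for Mtmr9 to 0.07 for Fdft1, each at limma's adjusted p = 1. The genes whose log2 pattern over the 16 arrays was most like that of the brighter Blk probe set, among 4599 genes with a mean log2 intensity of at least 6, were Ctsz, a lysosomal cathepsin (r = 0.86, and 0.85 over the 10 arrays other than the third-number arrays), and Jak3, the kinase of the common gamma chain cytokine receptors (r = 0.86, and 0.82 over those 10). These were picked for their likeness, so the correlations are a description.

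**Figure D2:**
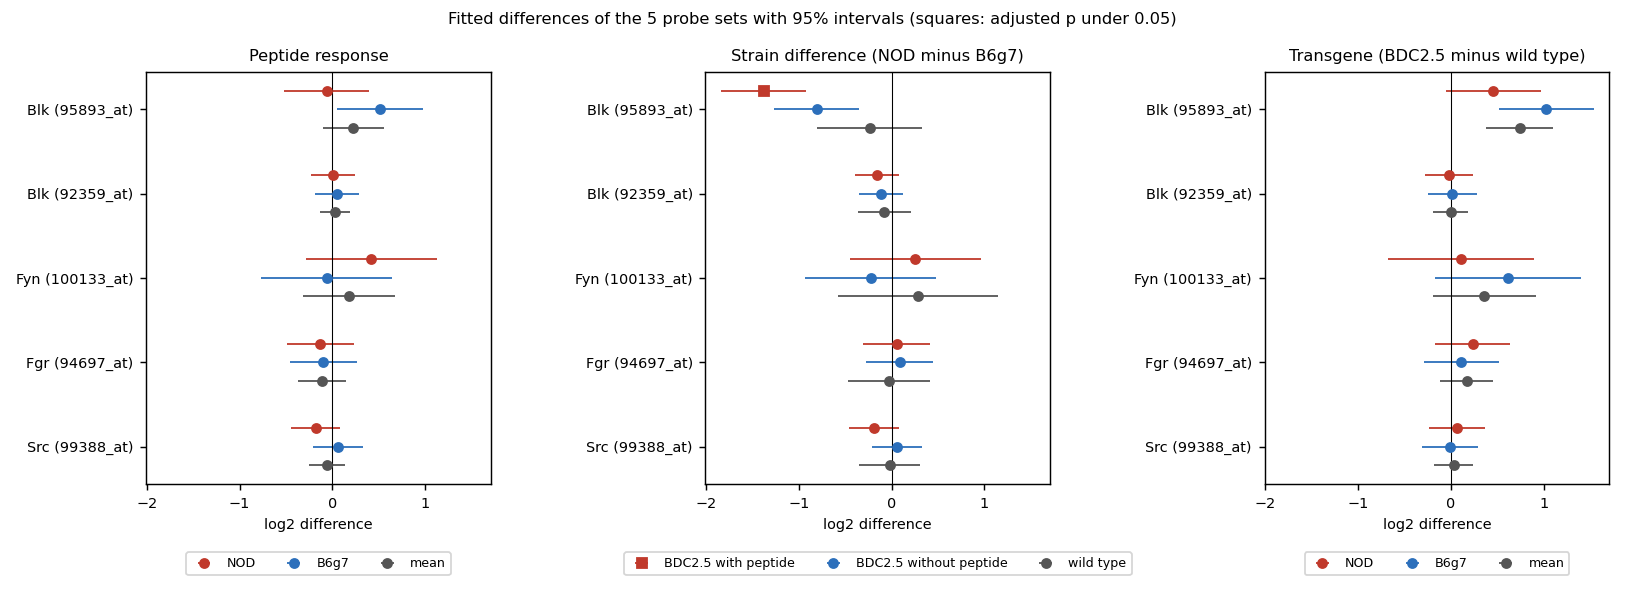
Log2 differences of the 5 kinase probe sets (rows) with 95% intervals from limma, for the peptide response (left), the strain difference NOD minus B6g7 (middle) and the transgene difference BDC2.5 minus wild type (right). The square, an adjusted p under 0.05, is Blk by its brighter probe set with peptide at -1.38, and the intervals of all other probe sets include 0.

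Fyn, the second Src family kinase of the TCR, passed in no comparison. With peptide it read 235, 251 and 325 in BDC2.5/NOD arrays, against 210, 234 and 228 in BDC2.5/B6g7 arrays. Every NOD array was above every B6g7 array, but the log2 difference was 0.26 ± 0.33 (95% interval -0.45 to 0.96, limma's adjusted p = 1). Without peptide it read 119, 239 and 281 in BDC2.5/NOD arrays, against 153, 261 and 319 in BDC2.5/B6g7 arrays, a difference of -0.22 ± 0.33 (adjusted p = 1). These groups overlapped, while NOD was lower in 3 of 3 same-numbered pairs, which gave -0.36, -0.13 and -0.18. With the replicate block limma's adjusted p was 0.955.

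Wild-type Fyn intensities were 149 and 231 in NOD arrays, against 130 and 179 in B6g7 arrays. The transgene difference was 0.11 ± 0.37 in NOD and 0.62 ± 0.37 in B6g7 by limma, and the mean of both was 0.36 ± 0.26 (adjusted p = 1). The peptide response was 0.42 ± 0.33 in NOD, with 3 of 3 same-numbered pairs up, and -0.06 ± 0.33 in B6g7, with 1 of 3 up, each at adjusted p = 1. By group mean the order of Fyn was BDC2.5/NOD with peptide (270 ± 48.3), BDC2.5/B6g7 without peptide (245 ± 84.2), BDC2.5/B6g7 with peptide (224 ± 12.8), BDC2.5/NOD without peptide (213 ± 83.7), wild-type NOD (190 ± 57.8) and wild-type B6g7 (154 ± 35.3), as SD over 3 BDC2.5 or 2 wild-type arrays. All neighbours in this order overlapped.

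Fgr and Src passed in no comparison either. Over the 16 arrays Fgr ran from 48.2 to 82.3 with a median of 60.4, and Src from 50.1 to 75.0 with a median of 58.0. With peptide, Fgr read 63.3, 60.1 and 57.1 in BDC2.5/NOD arrays, against 65.8, 60.8 and 48.2 in BDC2.5/B6g7 arrays, and the groups overlapped (0.06 ± 0.17 on the log2 scale, limma's adjusted p = 1). Src read 57.5, 57.5 and 50.1 in BDC2.5/NOD peptide arrays, against 66.1, 60.6 and 61.1 in BDC2.5/B6g7 peptide arrays. All NOD arrays of Src were the lower ones here, with a difference of -0.19 ± 0.12 (95% interval -0.46 to 0.08, adjusted p = 1). In the average of the 3 states Fgr gave 0.04 ± 0.10 and Src -0.05 ± 0.08, and in that of the peptide response Fgr gave -0.11 ± 0.12 and Src -0.06 ± 0.09, none of them called.

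Fyn, Fgr and Src varied within the groups along with the third-number arrays. Over all probe sets, departures of the BDC2.5 arrays numbered 3 from their group means correlated at 0.57 to 0.84, so such a shift is not particular to the kinases. The share of all probe sets that shifted like each kinase was not counted. Between-group differences held 33.6% of the variance of Fyn, 18.2% of that of Fgr, 27.8% of that of Src and 28.7% of that of Blk by its dimmer probe set. Within each group the third-number array read lowest for Fgr (6 of 6 groups), and in 5 of 6 groups for Blk by its brighter probe set and 4 of 6 for Src. For Fyn it read highest in 5 of 6. Fgr read 48.2 to 57.1 in the 6 third-number arrays and 58.9 to 82.3 in the other 10, with no overlap. Fyn had a median of 256 in the third-number arrays and 222 in the others, and its ranges overlapped. The part of RNA quality in these values was not tested.

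**Figure D3:**
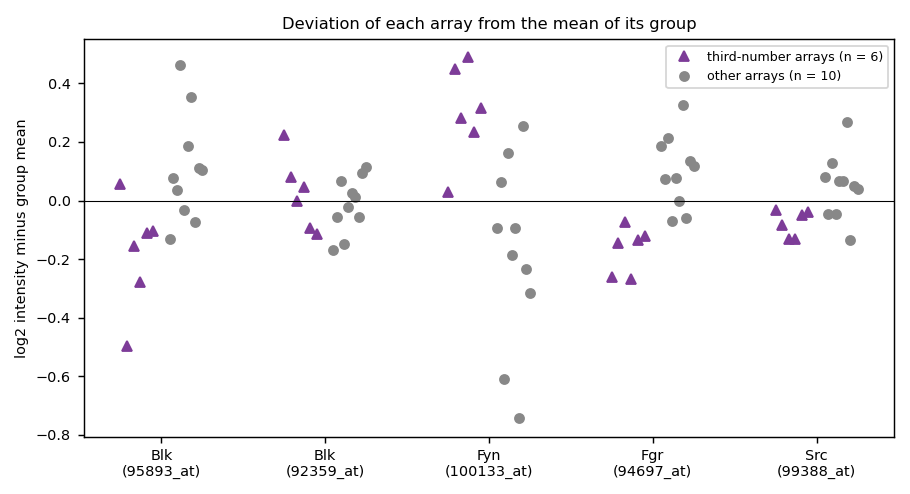
Log2 intensity of each array minus the mean of its group, for the 5 kinase probe sets, with the 6 third-number arrays as triangles and the other 10 as circles. All 6 triangles lie below 0 for Fgr and for Src, and all 6 lie above 0 for Fyn.

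How the members went together was described over the arrays. Over all 16, Fyn and Src correlated at r = -0.79, Fyn and Fgr at -0.57, and Fgr and Src at 0.67. Over the 10 arrays other than the third-number arrays the values were -0.75, -0.66 and 0.89. Blk by its brighter probe set correlated at 0.05 with Fyn, 0.14 with Fgr and 0.37 with Src over the 16 arrays. All arrays share the authors' scaling, which can tie dim probe sets together, and the values are a description. The patterns most like that of Fyn were St6gal1, a sialyltransferase (r = 0.89, and 0.87 over those 10 arrays), and Retreg1 (0.86 both times). Those most like Fgr were Lep and Mzf1 (0.94 each, and 0.93 and 0.94 over those 10), and those most like Src were H2-M10.1 (0.92, and 0.90 over those 10) and Galr2 (0.91, and 0.97 over those 10).

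A further Src family kinase, Yes1, which is not among the 6 chosen genes, was measured in a list with related kinases. Of the 8 genes of that list 6 were measured: Yes1, the Src-like kinases Frk and Srms, the inhibitory kinases Csk and Matk, and Abl1. Neither this list nor that of the family's regulators had a member called in any of the 11 planned comparisons. The strain averages of the 6 related kinases had a median of 0.01, against 0.00193 over all probe sets. Their peptide averages had a median of -0.06, against -0.02 over all. Csk gave 0.00 ± 0.09 in the strain average and 0.21 ± 0.12 in the transgene average, and Abl1 gave -0.23 ± 0.11 in the peptide average (limma's adjusted p = 0.998). Yes1 read 23.9 to 27.0 in BDC2.5/NOD peptide arrays and 25.6 to 30.1 in BDC2.5/B6g7 peptide arrays, and it gave -0.01 ± 0.08, Frk 0.02 ± 0.05 and Matk 0.05 ± 0.17 in the strain average.

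Of 26 listed regulators of the family, 21 were measured, and 14 were higher and 7 lower in NOD in the strain average (median 0.02, against 0.00193 over all). The phosphatase Ptpra, which can remove the inhibitory phosphate, gave 0.21 ± 0.12 and the transmembrane adaptor Sit1 gave 0.50 ± 0.29 there, each at limma's adjusted p = 1. In the peptide average 10 regulators were higher and 11 lower (median -0.01, against -0.02 over all), with the phosphatases Ptpn6 at 0.43 ± 0.22 and Ptpn2 at 0.36 ± 0.17. In the transgene average 14 were higher and 7 lower (median 0.11, against 0.00999 over all), with Csk as above and the ubiquitin ligase Cbl at 0.17 ± 0.10. Ptprc (CD45) gave 0.27 ± 0.32 in the peptide average and 0.05 ± 0.29 in the strain average.

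Of 35 listed substrates and partners of the family, 31 were measured, and 2 were called, both between the strains. Over all 12422 probe sets, 161 (1.3%) were called in the strain average, 61 (0.491%) with peptide and 33 (0.266%) without peptide. Cd8b1, the beta chain of the CD8 coreceptor, which brings Lck to the TCR through its alpha chain, was lower in NOD, at -1.92 ± 0.23 in the average of the 3 states (limma's adjusted p = 0.00036) and -2.02 ± 0.36 with peptide (adjusted p = 0.0247). It read 489, 582 and 415 in BDC2.5/NOD peptide arrays, against 1887, 3200 and 1308 in BDC2.5/B6g7 peptide arrays, and every NOD array was the lower. Cd8a, the alpha chain, gave 0.11 ± 0.22 in the strain average (adjusted p = 1). Cd3g, a CD3 chain that Src family kinases phosphorylate, was higher in NOD, at 1.05 ± 0.14 in the average (adjusted p = 0.000792) and 1.17 ± 0.22 without peptide (adjusted p = 0.0459). It read 1786, 2024 and 1604 in BDC2.5/NOD arrays without peptide, against 844, 623 and 971 in BDC2.5/B6g7 arrays without peptide, with no overlap. The averages of Cd8b1 and Cd3g passed under all 25 alternatives run. The call of Cd8b1 with peptide was lost without any of the BDC2.5/NOD peptide arrays, or without the BDC2.5/B6g7 peptide arrays numbered 1 or 2 (-2.15 to -1.68, adjusted p = 0.064 to 0.129). It was also lost with only the compared groups in the fit (-2.02, adjusted p = 0.0714), and it held under 19 of 25 alternatives. The call of Cd3g without peptide held under 8 of 25 alternatives (0.99 to 1.39, adjusted p = 0.00601 to 0.394). In all, 22 of 31 were higher in NOD in the average (median 0.02, against 0.00193 over all).

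With peptide, 16 of the 31 substrates and partners were higher and 15 lower in the average of both strains (median 0.01, against -0.02 over all), with 0 called. Cd5, an inhibitory receptor set by TCR signal strength, gave 0.90 ± 0.33 (limma's adjusted p = 0.998) and Cd8a -0.54 ± 0.25 (adjusted p = 0.998). In the transgene average 23 were higher and 8 lower (median 0.10, against 0.00999 over all), with the adhesion receptor Cd2 at 0.93 ± 0.34 and the kinase Prkcq at 0.37 ± 0.16, each at adjusted p = 1. Zap70 gave 0.44 ± 0.39 in the peptide average and 0.01 ± 0.34 in the strain average.

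Genes that TCR signals induce were higher with peptide. Of 13 measured, 13 were higher with peptide in the average of both strains (median 0.90, against -0.02 over all), and 2 were called. Over all probe sets 3 of 12422 (0.0242%) were called there. The list was written with earlier results of these data known, so its counts are a description and no test of the peptide response. Nr4a1, an orphan nuclear receptor, rose by 1.87 ± 0.25 (limma's adjusted p = 0.0138), and Itm2a, a transmembrane protein gene, rose by 1.74 ± 0.22 (adjusted p = 0.0136). Itm2a passed under 22 of 25 alternatives and Nr4a1 under 20, with Nr4a1 at 1.38 (adjusted p = 0.0808) without the third-number arrays. The 3 losses of Itm2a came without the BDC2.5/B6g7 no-peptide array numbered 2, the BDC2.5/B6g7 peptide array numbered 1 or the BDC2.5/NOD no-peptide array numbered 1 (1.71 to 1.79, adjusted p = 0.0574 to 0.0693). Nr4a1 lost its call without these arrays too, and without the BDC2.5/B6g7 no-peptide array numbered 3 (1.81 to 1.89, adjusted p = 0.0574 to 0.0712). The kinase probe sets gave -0.11 to 0.23 in the same average. In the strain average Nr4a1 gave -0.52 ± 0.22 and the transcription factor Irf4 -0.33 ± 0.13 (adjusted p = 0.69 and 0.597). In the transgene average Egr1 gave 0.97 ± 0.30 and its corepressor Nab2 0.33 ± 0.14 (adjusted p = 1 each). The summed intensity of these 13 genes was 2928 to 3331 in BDC2.5/B6g7 arrays without peptide, against 1912 to 2147 in wild-type B6g7 arrays. Blk by its brighter probe set did not overlap between these groups either. In NOD the sums overlapped, at 2353 to 3336 in BDC2.5/NOD arrays without peptide and 2262 to 2785 in wild-type arrays, while Blk did not. The sum was 4588 to 7260 in BDC2.5/NOD arrays with peptide, where the peptide difference of Blk was -0.06 ± 0.21. How these genes relate to Blk was not tested.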

How the data were processed

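The deposited values are linear intensities, which run from 7.77 to 13168 over the tested probe sets. The authors' scaling, background correction and probe set summary are not given in the sources used here. Array medians of log2 intensity lay within 0.11 of each other, so the scale was kept and log2 was taken of the deposited values with no pseudocount. Of 12488 probe sets, 66 controls were left out and 12422 tested. Of these, 10833 named 1 gene (8251 genes), 396 several and 1193 none in the platform annotation. All 5 kinase probe sets matched the mouse RefSeq table (GRCm38.p6) by gene ID, which served for gene names and order only.

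limma 3.58.1 in R 4.3.3 fitted 6 group means to all 16 arrays (eBayes with an intensity trend, 10 residual and 3.60 prior degrees of freedom). Benjamini-Hochberg adjustment ran over all probe sets within each comparison, two-sided, with calls at an adjusted p under 0.05. Values after ± are SE for differences and SD for group means. The fit was tested on simulated data with independent noise in each array. Arrays of these data share departures by number, so that test does not show how reliable the calls are here. Genes of a list were read by their brightest probe set. The number of arrays limits the precision.

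The members, the gene lists, the third-number arrays and the alternatives were chosen with earlier results of these data known. The rule for named genes took all kinase probe sets, the relatives, from each list the 2 genes of lowest p in each average, called members, and the 2 genes most like each kinase. Cd3g and Cd8b1 entered as called members. Tyrobp, C1qa, Ctss, Itgam, Fcgr3, Spi1, Cd79a, Pax5, Cr2, Ebf1, Ptprc and Zap70 were chosen after their values were seen.

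Titles number the arrays. BDC2.5 arrays of the same number departed alike from the means of their groups. Over all probe sets their departures correlated at 0.64, 0.25 and 0.60 with against without peptide in B6g7, 0.61, 0.58 and 0.79 likewise in NOD, 0.78, 0.16 and 0.84 between strains without peptide and 0.58, 0.23 and 0.57 with peptide. The numbers were taken as pairs from these correlations and not from the labels, and whether wild-type numbers belong to BDC2.5 numbers is unknown. Alternatives were median centring, quantile normalization, log2(value + 16), only probe sets above the median level, no trend, the replicate block, a term for the third-number arrays, leaving them out, only the compared groups, and each array left out in turn.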

Additional observations from a re-analysis of the deposited data

Results flagged for a closer look

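Src was flagged because the peptide arrays of the strains lay on opposite sides. All 3 BDC2.5/NOD peptide arrays lay below the mean of the BDC2.5/NOD arrays without peptide, and all 3 BDC2.5/B6g7 peptide arrays lay above that of the BDC2.5/B6g7 arrays without peptide. The response in NOD minus that in B6g7 was -0.25 on the log2 scale. limma's test of this difference did not pass (adjusted p = 1). The NOD mean without peptide includes the array numbered 1 at 75.0, which raises that mean above all 3 peptide arrays. The other NOD arrays without peptide read 56.7 and 56.8. These lay below the NOD peptide arrays numbered 1 and 2, at 57.5 each, so the NOD arrays with and without peptide overlapped.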

How the results depend on the processing

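Blk by its brighter probe set kept the direction of its strain differences under the 24 alternatives that include it. With peptide it ran from -1.47 to -1.11. Of 1476 values of the kinase probe sets under alternatives, 3 passed only there and 2 lost their call, all of Blk by its brighter probe set and given above. Of the 1425 that passed neither way, 77 changed sign, none of them larger than 0.283 on the log2 scale in either setting.

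The kinases called changed to 0 in the strain difference with peptide and in its average with only probe sets above the median level, which leaves that probe set out. They were 1 without peptide with the third-number term, and 1 in the transgene average with the replicate block. Leaving out single arrays gave 0 to 1 in the strain difference with peptide and 0 to 1 in the transgene average.

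Counts over all probe sets moved as follows. With the replicate block they were 3 in the peptide response of B6g7, 7 in its average, 69 without peptide, 129 with peptide, 32 in wild type and 271 on average for strain, and 28 in the transgene average. With the third-number term they were 4, 1 in NOD, 8, 82, 144, 47, 314 and 29. Without the third-number arrays they were 3 in the peptide response of B6g7, 36 for strain with peptide and 0 for the transgene in NOD. With only probe sets above the median level they were 0 in the peptide response of B6g7, 28, 6 and 101 for strain with peptide, in wild type and on average, and 4 for the transgene in NOD. With only the compared groups they were 0 in the peptide response of B6g7, 0 without peptide, 22 with peptide and 0 in wild type for strain, and 1 in B6g7 and 0 in NOD for the transgene. The B6g7 peptide response had 2 with quantile normalization, 2 with log2(value + 16) and 0 with no trend. Leaving out single arrays gave 0 to 10 in the peptide response of B6g7 and in its average, 15 to 43 without peptide, 15 to 58 with peptide and 2 to 14 in wild type for strain, and 6 to 10 in B6g7 and 2 to 8 in NOD for the transgene. The cause was not tested.

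The replicate block changed no other call of a kinase. Alternatives for genes of the lists were added after seeing the data. Sit1, uncalled in the report, passed in the strain average under 1 of 25 (adjusted p = 0.0337), and Egr1 in the transgene average under 1 of 25 (0.0144). With 2 or 3 arrays per group and no detection values in the table, a dim probe set such as the dimmer one of Blk cannot show whether its RNA was above background. This also holds for the brighter Blk probe set in the NOD and wild-type groups.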
